A study of Homo sapiens with 6 samples.

Results

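The genes described here are 10 regulators and markers used to recognise the mesenchymal state of neuroblastoma cells: PRRX1, FOSL1, FOSL2, RUNX1, RUNX2, SNAI2, TWIST1, NOTCH2, NOTCH3 and VIM. They are listed by name, as genes known from the 2 identities of this tumour, and all 10 were found among the 60651 genes listed. They were measured by RNA sequencing in cells labelled SK-N-AS, an established human neuroblastoma cell line without amplification of the MYCN oncogene. In all libraries the cells carried a MYCN gene under tetracycline control together with the tetracycline repressor, both stably transfected, and were kept as single clones under the selection antibiotics G418 and blasticidin. The 3 control libraries are labelled Control and carry ETOH in their titles. The 3 MYCN-induced libraries came from the same cells after tetracycline in the medium for 5 days (120 h). No tetracycline-treated cells lacking the MYCN construct are part of the comparison, so tetracycline and MYCN cannot be told apart. The number of clones behind the libraries is not given in the labels, and p-values measure the spread between these libraries only.

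Neuroblastoma cells can hold an adrenergic state, close to sympathetic neuroblasts and kept by factors such as HAND2 and GATA3, or a mesenchymal state, close to migratory neural crest cells. The mesenchymal state is known for the homeobox factor PRRX1, AP-1 and RUNX factors, regulators of epithelial-mesenchymal transition, Notch signalling and the filament protein vimentin. Forced PRRX1 or active Notch is known to move cells towards this state. The comparison of induced with control cells asks how the transcripts of these genes stood when MYCN was raised in a line that lacks its amplification.

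Library totals ran from 64500589 to 102249336 assigned counts. MYCN itself stood at 30.3, 35.5 and 32.4 CPM (counts scaled to a common library size with the trimmed mean of M-values, TMM) in control replicates 1 to 3 and at 211, 221 and 199 in induced replicates 1 to 3, a log2 fold change of 2.68 (SE 0.08, adjusted p = 4.155e-05, edgeR), so the labels fit the induced gene. Induced replicate 3 differed from the rest. Its score on principal component 1 (44.8% of the variance) was 69.1, while induced replicates 1 and 2 scored 14.4 and 13.1 and the controls between -40.3 and -25.9. The fold change of each tested member is therefore also given without that library. For the genes named from the related lists it is given where it changes a call or moves the fold by over 1.5 times. Other genes of these lists also gained a call without that library and are not named.

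RUNX2 was the only 1 of the 10 genes that passed the test, and it rose 2.72-fold. The other genes with higher means after induction were FOSL1, FOSL2, PRRX1, VIM and SNAI2 among those tested, and TWIST1, NOTCH2 and NOTCH3 had lower means, but none of these 8 reached an adjusted p under 0.05. RUNX1 had too few counts to be tested. Of 29086 genes tested by edgeR's quasi-likelihood test with Benjamini-Hochberg adjustment, 990 were called (3.40%), 298 of them higher (1.02%) and 692 lower (2.38%). The share of the 9 tested members called, 1 of 9, rests on a single gene and is not read as a difference from that background. The members' median log2 fold change was 0.30, beside -0.00 over all genes tested. The control and induced ranges did not overlap for 5 of the 9 tested members (RUNX2, FOSL1, FOSL2, NOTCH2 and VIM), beside 26.2% of all genes tested. In bulk RNA, a change in the number of cells of a type and a change in RNA per cell cannot be told apart.

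**Figure D1:**
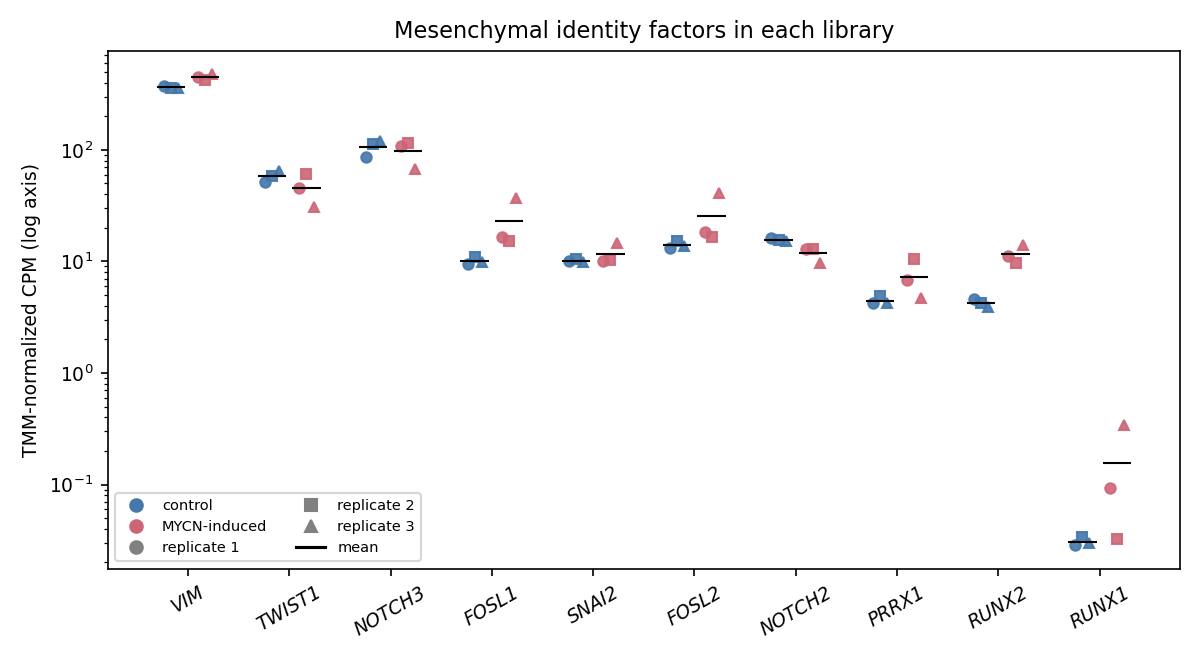
TMM-normalized CPM of the 10 genes (log axis) in each control and MYCN-induced library, ordered by their length-corrected level (TPM) in controls; marker shape gives the replicate and the black bar the group mean. RUNX2 is separated between groups (4.24 against 11.6 CPM on average), and induced replicate 3 lies far above its group for FOSL1 and FOSL2.

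RUNX2 is a RUNX-family (runt domain) transcription factor best known from bone formation. It lies at chr6:45328157-45664349 on the plus strand (GRCh38). RUNX2 stood at 4.58, 4.23 and 3.91 CPM in the controls and at 11.1, 9.58 and 14 CPM in the induced libraries. All 3 induced libraries lay above all controls, and the lowest induced value was above the highest control value by more than the range of the controls. The means were 4.24 ± 0.335 CPM (SD, n = 3) and 11.6 ± 2.23 CPM (SD, n = 3). The RUNX2 log2 fold change was 1.45 (SE 0.15, 95% interval 1.09 to 1.80, edgeR adjusted p = 0.0052). Without induced replicate 3 it was 1.29 (adjusted p = 0.00262, edgeR). Over all alternatives the adjusted p ran from 8.991e-15 to 0.0502, and the call was lost only when control replicate 2 was left out, where the log2 fold change was 1.44.

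RUNX2 has a distal and a proximal promoter, from which isoforms with different first exons start. The sequences below are shown because the motifs of the AP-1 and RUNX proteins, 2 of the factor families described here, lie in the distal promoter of the 1 member that passed the test. They are from RefSeq (GRCh38.p14), plus strand, 5′ to 3′, and capitals mark matches to the AP-1 motif TGACTCA or the RUNX motifs TGTGGT and TGCGGT on either strand. The first is the outer part of the distal promoter, chr6:45328080-45328156, up to the first exon base used in counting, and the second is a short window from the same promoter, chr6:45328232-45328260.
RUNX2 distal promoter, outer part: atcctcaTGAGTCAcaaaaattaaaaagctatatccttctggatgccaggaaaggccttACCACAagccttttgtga
RUNX2 distal promoter, inner window: tgaggtcacaaACCACAtgattctgcctc

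The AP-1 match TGAGTCA begins 243 bases before the RefSeq start site, and the RUNX matches ACCACA begin 191 and 87 bases before it. In its whole window of 300 bases (250 before to 50 after the start) the distal RUNX2 promoter held 1 AP-1 and 5 RUNX matches, with 42.7% G and C and 2 CpG sites. The proximal RUNX2 promoter (chr6:45422025-45422324) held neither motif and had 76.0% G and C and 39 CpG sites. Over all 35116 RefSeq promoters, 4.95% held the AP-1 motif and 19.6% a RUNX motif on either strand. Counts per gene do not show which of the RUNX2 promoters was in use, and a match is a description of the letters only.

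RUNX1, the other RUNX gene of the group and best known from blood development, lies at chr21:34787801-36004667 on the minus strand. RUNX1 had 3 counts in each of the 3 controls (exact Poisson 95% interval 0.619 to 8.77 for each, counting error only). It had 6 counts in induced replicate 1 (2.2 to 13.1), 3 in replicate 2 (0.619 to 8.77) and 29 in replicate 3 (19.4 to 41.6). As raw counts, only induced replicate 3 lay outside the counting interval of the controls, while induced replicate 2 had the same count as each control. As CPM these counts were 0.0287 to 0.0338 in controls and 0.0925, 0.0322 and 0.342 in the induced libraries. On this scale the upper counting limits of control replicates 1 to 3 were 0.0837, 0.0989 and 0.0865. Induced replicate 1, the smallest library, thus lay above those of control replicates 1 and 3. Its own interval (0.0339 to 0.201 CPM) overlapped those of the controls. RUNX1 missed the minimum of 10 counts in 3 libraries, so no fold change is given.

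RUNX2 was therefore the more abundant of the pair in every library. The ratio of RUNX1 to RUNX2 in TPM (counts divided by exon length, then scaled to the same total in each library) was 0.00329, 0.00421 and 0.00397 in controls and 0.00437, 0.00177 and 0.0129 in induced cells. These overlapped, and the difference of 0.28 in log2 ratio had a p of 0.7 (two-sided exact permutation test, n = 3 and 3, smallest p possible 0.1, 0.7 adjusted over 3 ratios). It rested on induced replicate 3 and was -0.45 without it. Among the 5 partner genes of the RUNX proteins, 3 were tested and 0 were called by edgeR or DESeq2 (2 at an unadjusted p under 0.05), with a median log2 fold change of -0.17. Of those 2, CBFB, which encodes the DNA-binding partner of all RUNX proteins, gave a log2 fold change of 0.27 (adjusted p = 0.19), and RUNX1T1, a corepressor gene, had -0.20 (adjusted p = 0.126). Without induced replicate 3, CBFB gave a log2 fold change of 0.36 (adjusted p = 0.0163, edgeR), and its adjusted p over all alternatives ran from 0.0163 to 0.473.

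FOSL1 and FOSL2 encode the Fos-related antigens FRA1 and FRA2, which bind AP-1 sites together with JUN proteins. FOSL1 lies at chr11:65892049-65900573 on the minus strand and FOSL2 at chr2:28392448-28417317 on the plus strand. FOSL1 stood at 9.49, 11 and 9.96 CPM in controls and at 16.5, 15.3 and 36.9 CPM in induced cells. FOSL2 stood at 13.1, 15.1 and 13.6 CPM in controls and at 18.4, 16.4 and 41.1 CPM in induced cells. For both genes every induced library lay above every control, and induced replicate 3 lay more than 2-fold above either of the other induced libraries.

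The FOSL1 means were 10.2 ± 0.782 and 22.9 ± 12.1 CPM (SD, n = 3), a log2 fold change of 1.18 (SE 0.32, 95% interval 0.44 to 1.91, edgeR adjusted p = 0.0963). The FOSL2 means were 14 ± 1.05 and 25.3 ± 13.7 CPM (SD, n = 3), a log2 fold change of 0.86 (SE 0.32, 95% interval 0.12 to 1.6, edgeR adjusted p = 0.205). Neither passed the threshold, and the SD of each gene was far larger in induced than in control cells. Without induced replicate 3 the FOSL1 log2 fold change was 0.66 and passed (adjusted p = 0.0119, range over alternatives 0.00333 to 0.284), and that of FOSL2 was 0.33 (adjusted p = 0.0894, range 0.0642 to 0.427). Smaller estimates with smaller errors were thus obtained from the 5 remaining libraries.

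The ratio of FOSL1 to FOSL2 in TPM, which does not depend on library scaling, was 2.75, 2.76 and 2.77 in controls and 3.4, 3.55 and 3.41 in induced cells. All induced libraries had a higher ratio than all controls, and induced replicate 3 did not stand apart on this measure. The mean log2 ratio was 1.46 ± 0.01 in controls and 1.79 ± 0.03 in induced cells (SD, n = 3), a difference of 0.32 (two-sided exact permutation p = 0.1, the smallest that 3 against 3 libraries allow, so the threshold of 0.05 is out of reach, and 0.3 adjusted over 3 ratios).

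The FOSL2 promoter is shown for its own AP-1 match, TGACTCA, 4 bases after the RefSeq start site at chr2:28392851-28392879, plus strand, with the match in capitals. No RUNX match was found in the 300 bases of this promoter.
FOSL2 promoter: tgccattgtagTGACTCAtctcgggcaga

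Of 7 other FOS and JUN family genes, 6 were tested and 0 called by edgeR or DESeq2 (2 at an unadjusted p under 0.05), with a median log2 fold change of 0.27. JUND, the one with the highest TPM, gave a log2 fold change of -0.15 (adjusted p = 0.599). JUNB stood at 2.48, 6.09 and 8.52 CPM in controls and at 7.02, 13.5 and 16.0 CPM in induced cells, with overlapping ranges (log2 fold change 1.10, adjusted p = 0.237, range over alternatives 0.0136 to 0.481).

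PRRX1, the paired-related homeobox factor of limb and craniofacial mesenchyme, lies at chr1:170662728-170739421 on the plus strand. PRRX1 stood at 4.26, 4.87 and 4.23 CPM in controls and at 6.78, 10.5 and 4.66 CPM in induced cells. Induced replicates 1 and 2 lay above all controls, whereas induced replicate 3 lay within their range, opposite to its place for FOSL1 and FOSL2. The means were 4.46 ± 0.361 and 7.33 ± 2.98 CPM (SD, n = 3), and the log2 fold change was 0.72 (SE 0.27, 95% interval 0.10 to 1.34, edgeR adjusted p = 0.201). Without induced replicate 3 it was 0.97 and passed (adjusted p = 0.0273, edgeR; range over alternatives 0.0273 to 0.409).

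**Figure D2:**
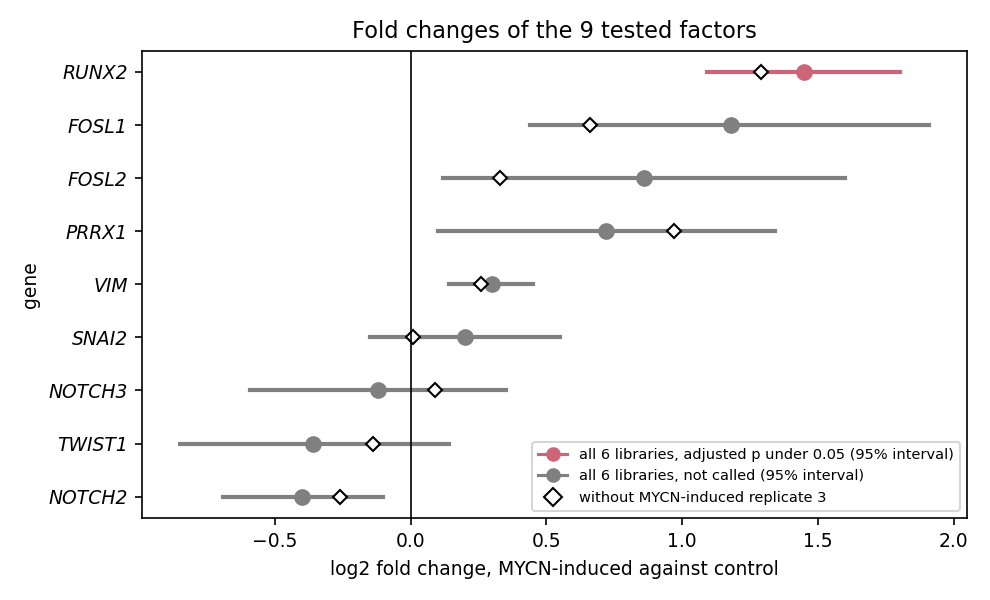
Log2 fold change of the 9 tested genes, MYCN-induced against control, with the 95% interval from edgeR over all 6 libraries (circles and bars) and the estimate without induced replicate 3 (diamonds). RUNX2 (1.45) is the gene past the threshold, FOSL1 moves from 1.18 to 0.66 without that library, and NOTCH3 moves across 0.

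SNAI2 (the gene for SLUG) and TWIST1 encode transcription factors that repress E-cadherin in epithelial-mesenchymal transition and act in neural crest migration. SNAI2 lies at chr8:48917598-48921740 and TWIST1 at chr7:19020991-19117636, both on the minus strand. SNAI2 stood at 10.1, 10.5 and 9.83 CPM in controls and at 10.1, 10.2 and 14.6 CPM in induced cells. The first and second induced libraries lay within the control range and only induced replicate 3 lay above it. The log2 fold change of SNAI2 was 0.20 (SE 0.15, 95% interval -0.15 to 0.55, edgeR adjusted p = 0.545), and it was 0.01 without that library. The interval excludes a doubling or a halving of SNAI2.

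TWIST1 stood at 51.9, 58.0 and 64.8 CPM in controls and at 45.2, 60.2 and 31.0 CPM in induced cells. The groups overlapped, with induced replicate 3 lowest. Its log2 fold change was -0.36 (SE 0.21, 95% interval -0.85 to 0.14, edgeR adjusted p = 0.434) and -0.14 without induced replicate 3. TWIST1 shares 141 of its 1997 exon bases with an unnamed antisense RNA (ENSG00000232821), which gave a log2 fold change of -0.71 (adjusted p = 0.161), and if counting ignored strand, as the command in the file headers reads, the reads of these bases cannot be told apart.

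Of 9 other transition factors, 8 were tested and 0 called by edgeR or DESeq2 (4 at an unadjusted p under 0.05), with a median log2 fold change of -0.03. SNAI1, the closest relative of SNAI2 among them and the highest in TPM, gave a log2 fold change of 0.12 (adjusted p = 0.611), and TCF4, an E-protein that pairs with TWIST1, had -0.24 (adjusted p = 0.0857, edgeR). TCF4 passed without induced replicate 3, with -0.21 (adjusted p = 0.0458, range over alternatives 0.0458 to 0.302).

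NOTCH2 and NOTCH3 encode receptors that are cleaved on contact with ligands on a neighbouring cell and release an intracellular transcriptional activator. NOTCH2 lies at chr1:119911553-120100779 and NOTCH3 at chr19:15159038-15200995, both on the minus strand. NOTCH2 stood at 16.1, 15.4 and 15.1 CPM in controls and at 13.0, 12.9 and 9.6 CPM in induced cells. All induced libraries lay below all controls, with induced replicate 3 lowest. The means were 15.5 ± 0.464 and 11.8 ± 1.91 CPM (SD, n = 3), and the log2 fold change was -0.40 (SE 0.13, 95% interval -0.69 to -0.10, edgeR adjusted p = 0.149), or -0.26 without induced replicate 3 (adjusted p = 0.068, range over alternatives 0.068 to 0.397). NOTCH2 has near-identical partial copies, of which NOTCH2NLC held 987 to 1953 counts per library (log2 fold change -0.17, adjusted p = 0.624), so the division of reads between NOTCH2 and this copy is uncertain.

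NOTCH3 stood at 86.5, 112 and 119 CPM in controls and at 109, 115 and 67.8 CPM in induced cells. The first and second induced libraries lay within the control range and the third below it. The log2 fold change of NOTCH3 was -0.12 (SE 0.20, 95% interval -0.59 to 0.35, edgeR adjusted p = 0.807), and leaving out induced replicate 3 turned its sign, to 0.09 (adjusted p = 0.741, range over alternatives 0.604 to 0.968). NOTCH3 exceeded NOTCH2 per length in every library, with TPM ratios of 11.4, 15.3 and 16.7 in controls and 17.8, 19.0 and 15.0 in induced cells. These ratios overlapped (difference in log2 ratio 0.26, two-sided exact permutation p = 0.3, 0.45 adjusted over 3 ratios).

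Of the 7 other Notch receptors and ligands, 6 were tested and 1 was called by edgeR, lower, with a median log2 fold change of -0.30. DESeq2 called 2, DLL1 and DLL3, also the 2 at an unadjusted p under 0.05. The gene called by edgeR was DLL3, an inhibitory Notch ligand expressed in neuroendocrine cells. DLL3 stood at 19.7, 23.0 and 26.1 CPM in controls and at 10.3, 9.21 and 9.86 CPM in induced cells, a log2 fold change of -1.23 (SE 0.12, adjusted p = 0.00418, edgeR). Induced replicate 3 did not stand apart for DLL3, and the value was -1.23 without it too. DLL1, another ligand gene, stood at 0.95, 1.34 and 1.49 CPM in controls and at 0.539, 0.687 and 0.684 CPM in induced cells. Its log2 fold change was -0.98 (adjusted p = 0.0528, edgeR, and 0.00653, DESeq2, range over alternatives 0.00653 to 0.222). NOTCH1, the highest of this list in TPM apart from DLL3, gave a log2 fold change of -0.20 (adjusted p = 0.758, edgeR).

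Among the 15 genes for Notch cleavage, glycosylation and coactivation, 15 were tested and 0 called by edgeR or DESeq2 (2 at an unadjusted p under 0.05), with a median log2 fold change of -0.15. The gamma-secretase subunit genes APH1A and NCSTN had log2 fold changes of -0.28 (adjusted p = 0.181) and -0.15 (adjusted p = 0.624, edgeR). NCSTN passed without induced replicate 3, with -0.33 (adjusted p = 0.0455, range over alternatives 0.0455 to 0.947). Of 7 Notch target genes 4 were tested, and 1 rose and 1 fell. HEY1, a repressor activated by Notch, stood at 10.8, 12.0 and 11.8 CPM in controls and at 18.3, 20.6 and 34.3 CPM in induced cells (log2 fold change 1.08, SE 0.22, adjusted p = 0.0441). HEYL, of the same family, stood at 2.49, 2.86 and 2.45 CPM in controls and at 1.68, 1.73 and 1.64 CPM in induced cells (log2 fold change -0.63, SE 0.12, adjusted p = 0.0398). HEY1 and HEYL thus moved in opposite directions, while neither NOTCH2 nor NOTCH3 was called. HES1, also a target at an unadjusted p under 0.05, gave a log2 fold change of 0.32 (adjusted p = 0.167, edgeR). All its induced libraries lay above all controls. HES1 passed without induced replicate 3, with 0.40 (adjusted p = 0.0422, range over alternatives 0.0422 to 0.388). Over all alternatives the adjusted p of HEY1 ran from 1.565e-04 to 0.185 and that of HEYL from 0.00392 to 0.219.

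VIM encodes vimentin, the intermediate filament protein of mesenchymal cells, and lies at chr10:17228241-17237593 on the plus strand. VIM stood at 372, 360 and 361 CPM in controls and at 447, 420 and 475 CPM in induced cells. All induced libraries lay above all controls. The means were 364 ± 6.22 and 447 ± 27.1 CPM (SD, n = 3), a 1.23-fold difference with a log2 fold change of 0.30 (SE 0.07, 95% interval 0.14 to 0.45, edgeR adjusted p = 0.0595). The adjusted p lay just above the threshold. It was 0.0254 without induced replicate 3, with a log2 fold change of 0.26, and ran from 0.0084 to 0.291 over all alternatives.

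VIM shares 1260 of its 5176 exon bases (24.3%) with antisense RNAs, VIM-AS1 over 641 bases and ENSG00000234961 over 619 bases. Their log2 fold changes were 0.55 (adjusted p = 0.328) and 0.26 (adjusted p = 0.0676, edgeR), and if counting ignored strand, as those headers read, reads from VIM and from these genes cannot be told apart there. The VIM promoter is shown for its RUNX match, TGTGGT, which begins 96 bases before the RefSeq start site at chr10:17228134-17228162, plus strand, with the match in capitals. It held no AP-1 match.
VIM promoter: aaaaagttgggTGTGGTttcatgggggga

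RefSeq promoters were read for 7 of the 10 genes, and not for FOSL1, SNAI2 and TWIST1. Entries on chromosome 8, where SNAI2 lies, were left out of the search for members. NOTCH2 had a RUNX match (TGCGGT, 38 bases before the start), and NOTCH3, PRRX1 and RUNX1 had neither motif. For RUNX1 a single window was read, chr21:34888650-34888949. It lies inside the gene, which begins at 36004667 on the minus strand, so sequence before that beginning was not read. The E-box CACGTG, the best-known motif of MYC-family proteins, was in 0 of these promoters and in 7.26% of all promoters. This absence covers only these letters in these windows.

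Of 10 other intermediate filament genes, 9 were tested and 0 called by edgeR, 1 by DESeq2 (NES, which was also the 1 gene at an unadjusted p under 0.05), with a median log2 fold change of 0.16. NES (nestin), the highest in TPM, stood at 732, 778 and 706 CPM in controls and at 602, 623 and 551 CPM in induced cells, all below the controls and so opposite to VIM (log2 fold change -0.32, SE 0.07, adjusted p = 0.0643, edgeR). NES passed without induced replicate 3, with -0.26 (adjusted p = 0.0422, range over alternatives 0.0301 to 0.305). SYNM, for synemin, gave a log2 fold change of 0.16 (adjusted p = 0.623).

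Compared per length, the 10 genes spanned a wide range of levels in control cells. VIM was highest at 116 ± 7.72 TPM (SD, n = 3), followed by TWIST1 at 47.7 ± 2.92, NOTCH3 at 18.4 ± 2.15, FOSL1 at 8.83 ± 0.641, SNAI2 at 5.08 ± 0.343 and FOSL2 at 3.2 ± 0.235 TPM. NOTCH2 followed at 1.28 ± 0.104, PRRX1 at 0.887 ± 0.0807, RUNX2 at 0.853 ± 0.111 and RUNX1 at 0.00323 ± 0.000289 TPM. Of these neighbours only PRRX1 and RUNX2 had overlapping library ranges. The median of all tested genes was 3.26 TPM. VIM lay at percentile 98.6 of the tested genes, TWIST1 at 95.9, NOTCH3 at 86.0, FOSL1 at 72.4, PRRX1 at 24.9 and RUNX2 at 24.3.

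In induced cells VIM was again highest, at 142 ± 9.97 TPM (SD, n = 3). TWIST1 (38.5 ± 16.6), FOSL1 (19.1 ± 7.48) and NOTCH3 (17.4 ± 6.38 TPM) followed, and each of these overlapped with the next in that order except NOTCH3 with SNAI2. SNAI2 (5.74 ± 0.566) and FOSL2 (5.56 ± 2.24 TPM) overlapped. RUNX2 (2.28 ± 0.139) stood above PRRX1 (1.51 ± 0.779) and NOTCH2 (0.987 ± 0.266 TPM), with ranges that overlapped between RUNX2 and PRRX1 and between PRRX1 and NOTCH2. RUNX2 and NOTCH2 had thus changed places, RUNX2 from below NOTCH2 in every control to above it in every induced library, and RUNX1 stayed last at 0.015 ± 0.0144 TPM.

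**Figure D3:**
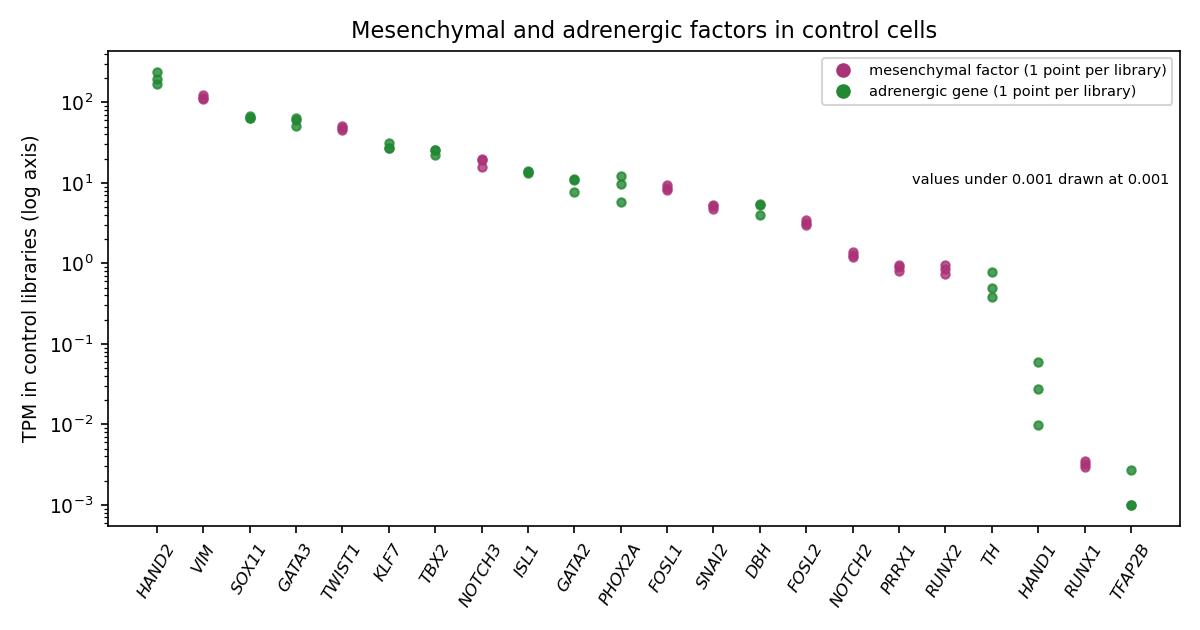
TPM of the 10 mesenchymal factors and 12 adrenergic genes in the 3 control libraries (log axis), 1 point per library, ordered by mean. HAND2 (200 TPM) lies above VIM (116 TPM), the highest mesenchymal gene, and RUNX1 lies near the bottom at 0.00323 TPM.

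The mesenchymal label was checked against these levels. Some genes of the adrenergic identity were among the highest in control cells. HAND2 stood at 200 ± 34 TPM, above VIM. SOX11 at 65.4 ± 1.72 and GATA3 at 58.4 ± 6.65 TPM (SD, n = 3) lay above TWIST1. Other adrenergic genes were low, with TH at 0.549 ± 0.205, HAND1 at 0.0321 ± 0.0252 and TFAP2B at 0.000895 ± 0.00155 TPM. Of the mesenchymal matrix and surface markers, the collagen genes COL1A1 (314 ± 44.4) and COL3A1 (296 ± 23.8) and the galectin gene LGALS1 (222 ± 21.7 TPM) stood above HAND2, and SPARC was at 81.1 ± 6.29 TPM (SD, n = 3). Other markers of that list had control means under the median of tested genes (3.26 TPM). AXL was at 2.07, ENG at 1.55, COL1A2 at 1.53, TAGLN at 1.51 and LOX at 0.785 TPM. CAV1 was at 0.406, NT5E at 0.314, THY1 at 0.144 and S100A6 at 0.023 TPM. CD44, a surface marker of mesenchymal neuroblastoma cells, had 0 counts in all 6 libraries, and RUNX1 was near 0. Control cells thus held high levels of some genes from both identities. Of the mesenchymal genes, CD44, S100A6 and RUNX1 were absent or nearly so, as were HAND1 and TFAP2B of the adrenergic genes. The same held for GLIS3 (0.00297 TPM), BHLHE41 (0.0177 TPM) and MEOX2 (0 counts) among the other mesenchymal regulators described below. Whether the line is as labelled was not tested. The 10 genes are therefore described by name and not as a measure of a mesenchymal state of these cells. Of the 12 adrenergic genes reported here 10 were tested and 0 called by edgeR, 2 by DESeq2 (ISL1 and DBH, also the 2 at an unadjusted p under 0.05), with a median log2 fold change of -0.06. When induced replicate 3 was left out, edgeR called 3, all lower, whose adjusted p over alternatives reached 0.237 (ISL1), 0.56 (KLF7) and 0.409 (DBH). ISL1, a LIM homeobox factor, went from -0.55 (adjusted p = 0.0562) with all libraries to -0.42 without that library (adjusted p = 0.0177). KLF7, a zinc finger factor, went from -0.46 (adjusted p = 0.33) to -0.80 (adjusted p = 0.00474), and DBH, for the enzyme that makes noradrenaline, from -0.85 (adjusted p = 0.147) to -1.22 (adjusted p = 0.0156). HAND2, a basic helix-loop-helix factor of sympathetic neurons, showed a log2 fold change of 0.09 (adjusted p = 0.837, edgeR), and SOX11, a neuronal SOX factor, one of -0.09 (adjusted p = 0.507).

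Of 24 other transcriptional regulators described in mesenchymal neuroblastoma cells, 21 were tested and 4 passed, all higher, with a median log2 fold change of 0.18. Over all genes tested 3.40% were called. DESeq2 called these 4 and WWTR1, and 8 had an unadjusted p under 0.05 (edgeR). WWTR1 gave 0.28 (adjusted p = 0.0883, edgeR) and passed without induced replicate 3, with 0.29 (adjusted p = 0.0422, range over alternatives 0.0134 to 0.383). Each of the 4 had all induced libraries above all controls, which is not independent of the call. Ranges did not overlap for 26.2% of all genes tested. EGR3, an immediate early zinc finger factor, went from 1.81 ± 0.0773 to 3.74 ± 0.558 CPM (log2 fold change 1.04, adjusted p = 0.0121, edgeR, n = 3). SIX4, a homeobox factor, went from 20.7 ± 0.197 to 33.3 ± 7.1 CPM (log2 fold change 0.69, adjusted p = 0.0462). SMAD3, which carries TGF-beta signals to the nucleus, went from 58.4 ± 2.09 to 79.2 ± 1.47 CPM (log2 fold change 0.44, adjusted p = 0.0144). NR3C1, the glucocorticoid receptor gene, went from 24.0 ± 1.47 to 32.5 ± 2.98 CPM (log2 fold change 0.44, adjusted p = 0.0487). The calls depended on single libraries, and the adjusted p over all alternatives reached 0.0946 for EGR3, 0.102 for SMAD3, 0.213 for SIX4 and 0.24 for NR3C1.

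Of 20 mesenchymal surface, matrix and cytoskeletal marker genes 18 were tested. In edgeR 4 passed, all lower, and 8 passed in DESeq2, of which ANXA1 was higher. Over all genes tested 3.40% passed in edgeR and 7.23% in DESeq2. The median log2 fold change was -0.30. FN1, for fibronectin, fell from 56.7 ± 5.09 to 34.8 ± 5.81 CPM (SD, n = 3; log2 fold change -0.71, adjusted p = 0.033, edgeR). TNC (tenascin C) fell from 41.0 ± 2.07 to 27.8 ± 1.08 CPM (log2 fold change -0.56, adjusted p = 0.011). COL3A1, a fibrillar collagen gene, gave a log2 fold change of -0.51 (adjusted p = 0.0396), and SPARC, for a collagen-binding matrix protein, had -0.47 (adjusted p = 0.0214). RUNX2 and these 4 matrix genes therefore moved in opposite directions in the same libraries. ANXA1, for the phospholipid-binding protein annexin A1, gave 0.50 (adjusted p = 0.122, edgeR) and passed without induced replicate 3, with 0.31 (adjusted p = 0.0486, range over alternatives 0.0414 to 0.382). PDGFRB and COL1A2 also passed without that library, both lower. PDGFRB went from -0.34 (adjusted p = 0.0811, edgeR) to -0.26 (adjusted p = 0.0427). COL1A2 went from -0.68 (adjusted p = 0.0914) to -0.49 (adjusted p = 0.0331). Their adjusted p over alternatives reached 0.334 and 0.263. Over all alternatives the adjusted p reached 0.168 for FN1, 0.0983 for TNC, 0.199 for COL3A1 and 0.137 for SPARC.

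**Figure D4:**
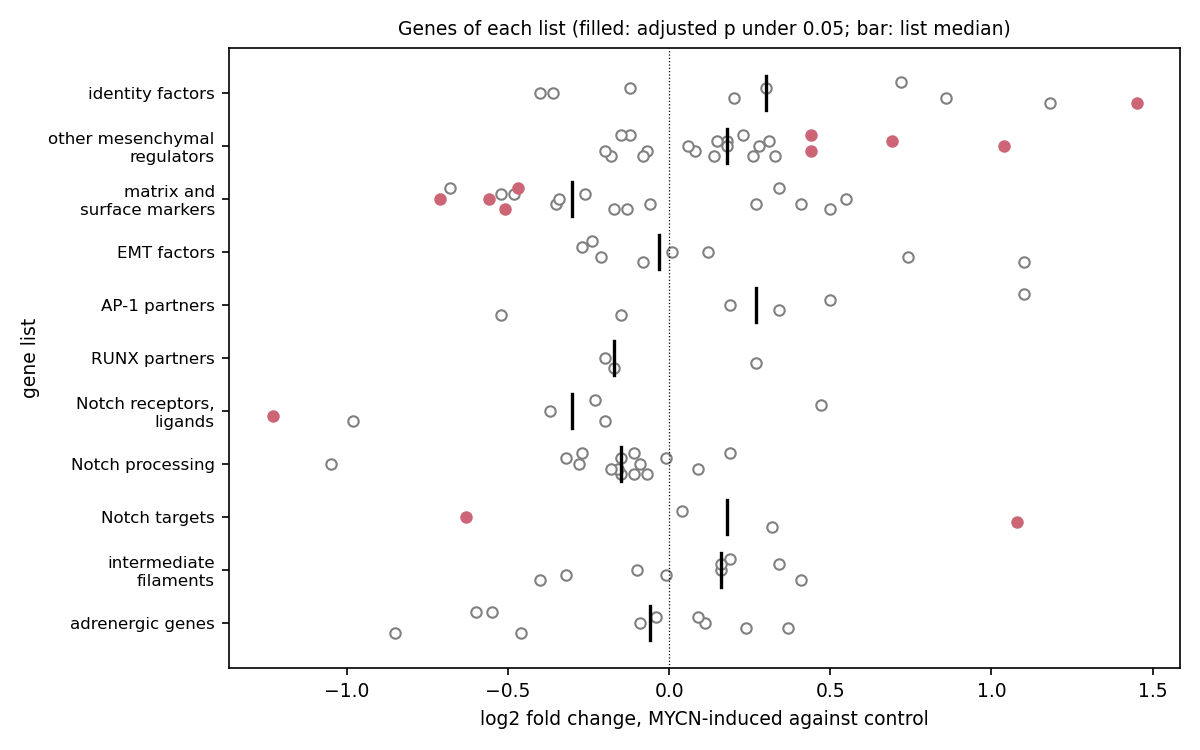
Log2 fold change (MYCN-induced against control) of each tested gene in the 10 identity factors and in 10 related lists; filled points passed an adjusted p under 0.05 and black bars are list medians. The called points are to the right of 0 for the identity factors and other mesenchymal regulators and to the left of 0 for the matrix and surface markers.

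By their median, integrated stress response genes were highest in induced replicate 3, then 1, then 2. On the CPM scale FOSL1, FOSL2, RUNX1, RUNX2 and VIM had the same order, which for RUNX1 rests on 6, 3 and 29 counts in induced replicates 1 to 3. PRRX1, TWIST1 and NOTCH3 were highest in replicate 2, then 1, then 3. NOTCH2 ran from replicate 1 to 2 to 3, and SNAI2 from 3 to 2 to 1. With 3 libraries few orders are possible, and the share of all genes with the stress order was not counted. On the TPM scale FOSL1 stood at 14.7, 14.9 and 27.8 in induced replicates 1 to 3. Of 16 such genes 14 were tested and 4 passed, all higher, with a median log2 fold change of 2.04, or 0.77 without induced replicate 3. Their median log2 level against the control mean was 1.07, 0.54 and 3.06 in induced replicates 1 to 3, and -0.02, 0.00 and 0.05 in controls. ATF4, the main transcription factor of this response, gave a log2 fold change of 1.0 (adjusted p = 0.0475). MTHFD2, a mitochondrial folate enzyme gene, had 1.70 (adjusted p = 0.0278), PHGDH, for the first enzyme of serine synthesis, 2.09 (adjusted p = 0.0482), and SLC7A11, a cystine transporter gene, 3.52 (adjusted p = 0.0494, edgeR). Without induced replicate 3 the values were 2.07 for SLC7A11 (adjusted p = 0.00564) and 1.40 for PHGDH (adjusted p = 0.0188). Over all alternatives the adjusted p reached 0.14 for MTHFD2, 0.207 for PHGDH, 0.212 for ATF4 and 0.219 for SLC7A11. On the CPM scale FOSL1, FOSL2, RUNX1, RUNX2, SNAI2 and VIM were highest in induced replicate 3, and NOTCH2, NOTCH3 and TWIST1 were lowest there. On the TPM scale VIM was instead at 145, 149 and 130 in the induced libraries, lowest in replicate 3, and at 109 to 124 in controls. The part of the stress response in these values was not tested.

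None of the markers of other cell types reported here was called by edgeR or DESeq2. Of the 5 Schwann cell markers reported here 2 were tested and 0 called (0 at an unadjusted p under 0.05), with FOXD3 at 0 in all libraries and a summed level of 1.63 to 1.78 CPM in controls and 1.45 to 1.89 CPM in induced cells. SOX10, the neural crest and glial factor, had a log2 change of -0.04 (adjusted p = 0.914, edgeR), and ERBB3, the neuregulin receptor gene, 0.02 (adjusted p = 0.968). Of 6 epithelial markers 3 were tested and 0 called (0 at an unadjusted p under 0.05), with sums of 173 to 207 CPM in controls and 154 to 179 CPM in induced cells. The keratin genes KRT18 and KRT8 had log2 fold changes of -0.16 (adjusted p = 0.44) and -0.28 (adjusted p = 0.383). Of 8 leukocyte and endothelial markers 5 were tested and 0 called (1 at an unadjusted p under 0.05), with CD3E at 0 and sums of 7.83 to 8.28 CPM in controls and 6.59 to 7.75 CPM in induced cells. CD68 and PTPRC, markers of macrophages and of leukocytes, had log2 fold changes of -0.14 (adjusted p = 0.723) and -0.17 (adjusted p = 0.715, edgeR).

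When induced replicate 3 was left out, 4 of the 9 tested members passed, beside 8.12% of the 28797 genes then tested. These were RUNX2, FOSL1, PRRX1 and VIM, all higher. With DESeq2 on all 6 libraries 3 members passed (RUNX2, FOSL1 and VIM), beside 7.23% of 29073 genes. RUNX2 was thus called in each of these fits, and FOSL1 and VIM in both of the others. FOSL1 and VIM also passed without a count filter. In the remaining alternative fits neither passed, with adjusted p up to 0.284 for FOSL1 and 0.291 for VIM (edgeR). FOSL2, SNAI2, TWIST1, NOTCH2 and NOTCH3 were called in none of the 3.

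The genes most like RUNX2 over the 6 libraries, by Pearson's r of log2 CPM among 12788 protein-coding genes that averaged 1 CPM or more, were GSR (glutathione reductase, r = 0.999), TTC19 (0.998) and BCAT1 (branched-chain amino acid transaminase, 0.997). BCAT1 stood at 210, 207 and 202 CPM in controls and at 402, 380 and 499 CPM in induced cells. The genes most like VIM were DERL1 (0.999), NACA (0.996) and CCDC6 (0.996). This r does not depend on the size of a change. GSR, BCAT1 and CCDC6 were called. TTC19 (log2 fold change 0.18, adjusted p = 0.208, edgeR), DERL1 (0.07, adjusted p = 0.551) and NACA (0.20, adjusted p = 0.139) were not. CCDC6 stood at 68.5, 67.9 and 67.9 CPM in controls and at 88.5, 80.3 and 96.0 CPM in induced cells. The 6 points share the induction and the library that stands apart, and 315 genes exceeded 0.95 with RUNX2 and 275 with VIM.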

How the data were processed

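RNA was extracted with Trizol, depleted of ribosomal RNA, prepared with a stranded TruSeq kit and sequenced as read pairs. The authors aligned reads to GRCh38 (STAR 2.7.1a in the processing notes) and deposited estimated counts per gene: per the file headers, featureCounts 1.6.4 gave overlapping genes fractions of a read and no strand setting (the notes name version 1.5.1, and the study's methods describe strand-specific counting). Counts were rounded for testing. The 92 listed spike-in sequences had 0 counts. Names came from GENCODE 44 (99.65% of IDs matched). Without strand, antisense exons cannot be separated.

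The 3 induced libraries were compared with the 3 controls by the quasi-likelihood test of edgeR 4.0.16 (R 4.3.3) with TMM scaling, Benjamini-Hochberg adjustment and a threshold of 0.05. A gene needed 10 or more counts in 3 or more libraries to enter. TPM were computed from counts and exon lengths. Ratios of TPM used two-sided exact permutation tests. Marker levels used a pseudocount of 0.1 CPM. MYCN and member values without induced replicate 3 came from the same test on 5 libraries. DESeq2 1.42.0, other normalizations, other count filters, unrounded counts, other thresholds, a replicate block and leaving out each library were alternatives. Fitted SEs of the members ran from 0.07 to 0.32 (log2) and did not follow their counts. On simulated counts over 28661 genes, edgeR recovered 68.5% of 200 genes changed 2-fold. The simulation gave all genes the same biological coefficient of variation (0.153) and held no library apart like induced replicate 3. That share therefore does not give the recovery in these data.

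The 10 genes and the related lists were chosen with earlier results of these data known; the lists were written from general knowledge. Some genes of the adrenergic and Schwann cell lists are not reported here, and list counts leave them out. Genes named were MYCN, the 10 members, up to 4 called genes per list with the largest change (where fewer than 2 passed, those with the highest mean TPM, until 2 were named), the 3 genes most correlated with each of the 2 members of smallest p, and genes that share exons with a member. GATA3, ISL1, KLF7, DBH, TH, HAND1, TFAP2B, CD44, COL1A1, COL1A2, LGALS1, ANXA1, PDGFRB, HES1 and NOTCH2NLC were added after their values were seen. So were S100A6, AXL, ENG, TAGLN, LOX, CAV1, NT5E, THY1, GLIS3, BHLHE41, MEOX2, WWTR1 and DLL1.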

Additional observations from a re-analysis of the deposited data

How the results depend on the processing

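Over 130 refits of single genes (the 9 tested members and MYCN), 121 kept direction and side of the threshold, 7 gained a call, 1 lost it (RUNX2 without control replicate 2, adjusted p = 0.0502, edgeR) and 1 turned sign (NOTCH3 without induced replicate 3, 0.09, with a range of -0.26 to 0.09 when single libraries were left out). The cause was not tested. The number of called genes (990) was 2103 with DESeq2 (904 higher, 1199 lower), 631 with at least 100 counts in every library, 181 at a threshold of 0.01 and 1948 at 0.1, and leaving out single libraries gave 90 (without control replicate 2) to 2339 (without induced replicate 3, 1060 higher and 1279 lower). It was 227 and 165 without control replicates 1 and 3, and 289 and 466 without induced replicates 1 and 2. Members called (1) were 3 with DESeq2, 3 without a count filter, 3 at a threshold of 0.1 and 0 to 4 when single libraries were left out, with 0 without control replicate 2. Genes called in the related lists (15) were 28 with DESeq2, 1 at a threshold of 0.01, 27 at 0.1 and 1 to 33 when single libraries were left out, with 1 without control replicate 2 or 3, 2 without control replicate 1 or induced replicate 1, and 33 without induced replicate 3. The RUNX1 to RUNX2 difference turned to -0.81 with 1 TPM added to both genes and ran from -0.45 to 0.98 when single libraries were left out.

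Libraries with the same number did not clearly deviate together (correlations 0.22, -0.02 and 0.07, against -0.05 on average between different numbers, with 3 of 6 libraries closest to their own number), so the numbers were not taken as pairs. With the replicate number as a block, 840 genes, 1 member and 16 list genes were called, and the RUNX2 log2 fold change was 1.43 (adjusted p = 0.0109). JUNB (1.17, adjusted p = 0.0136) and JUN (0.50, adjusted p = 0.046) gained a call with it, as did DLL1 and CEBPB, and HEYL (adjusted p = 0.0621), NR3C1 (0.0788) and SLC7A11 (0.0551) lost theirs. CEBPB also passed without induced replicate 3, with 0.85 (adjusted p = 0.00491, edgeR). The ratio differences with this block were 0.32 for FOSL1 to FOSL2, 0.28 for RUNX1 to RUNX2 and 0.26 for NOTCH3 to NOTCH2. RUNX1 could not be assessed at its depth of 3 to 29 counts.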
